A study of Mus musculus with 6 samples.

Results

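The mitosis genes described here are 44 human genes of the machinery that divides a cell: its kinases and cyclins, the chromosomal passenger complex, the spindle checkpoint, the kinetochore, the anaphase trigger, the spindle, the cytokinetic apparatus and the proteins that shape mitotic chromosomes. They are the rows of the deposited annotated table that carry one of 44 gene names, out of 20036 genes in all, and the kinesin motors with KIF names were left out of the list, while CENPE, itself a kinesin, is a member. RNA was sequenced from THP-1 cells, a human acute monocytic leukaemia line. The Melittin group (3 libraries) was treated with PMA, a phorbol ester that turns these cells into adherent macrophage-like cells, at 100 ng/ml over 48 h, in the bottom part of a Transwell dish, and was then kept for 48 h below tumour cells with 3 µg/ml melittin, the main membrane-lytic peptide of bee venom. The NC group (3 libraries) is taken to share the PMA step, and the labels do not say what its wells received afterwards or whether tumour cells stood above them, so an effect of the tumour cells and one of melittin cannot be told apart. The organism label reads mouse, while all 20036 gene identifiers are human and 0 are mouse, and the genes are treated as human ones throughout. Nothing says that the libraries came from separate cultures, so each p-value reflects only how far these libraries vary, and that variation may be technical.

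Entry into mitosis is driven by the kinase CDK1 bound to cyclins A and B. Kinetochores then attach chromosomes to spindle microtubules while the spindle checkpoint holds back the anaphase-promoting complex (APC/C), the ubiquitin ligase that CDC20 activates. Once the checkpoint is satisfied, APC/C marks cyclin B and securin for destruction, separase cuts cohesin and the chromatids part. Most of these genes are transcribed in G2 and M phase, so their transcripts are low in cells that have left the cycle, as THP-1 cells largely do on PMA. In bulk RNA, fewer cycling cells and less RNA per cycling cell cannot be told apart.

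Total counts ran from 16192032 to 19521897 in the Melittin libraries and from 16001423 to 19597781 in the NC libraries. Values in CPM are read counts scaled to library size with TMM factors, which were 0.921 to 0.927 in Melittin and 1.08 in all NC libraries. A single count was worth 0.0557 to 0.0670 CPM in Melittin libraries and 0.0471 to 0.0578 CPM in NC libraries, which sets the precision of the rarest members. FPKM values, counts divided by gene length and by the library's total count, are used to compare levels between genes and carry no TMM scaling. Of the 12029 genes tested with edgeR's quasi-likelihood test, 76.4% passed an adjusted p of 0.05: 38.3% were lower and 38.1% higher with Melittin, with a median log2 fold change of −0.007. With library totals as the only scaling, 6244 genes were called lower and 3159 higher, against 4612 and 4578 with TMM, and the median of all genes moved by over 0.1, to −0.238. The fold changes below are relative to the TMM scaling.

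Most mitosis genes were lower with Melittin, and a few were higher. Of the 44 genes, 41 had enough counts to be tested. In the edgeR test 33 of these fell (80.5% of the tested members, where 38.3% of all tested genes fell) and 4 rose (9.76%, where 38.1% of all tested genes rose). The 4 that rose were ESPL1, PTTG1, NDC80 and INCENP. PLK1, AURKB, BUB3 and UBE2C did not pass, and CDC25C, NUSAP1 and PRC1 were too low to test. The members' median log2 fold change was −1.17, and the values ran from −3.27 for SPC25 to 2.16 for ESPL1. At least a 2-fold fall was seen in 23 members, against 9.96% of all tested genes, and at least a 2-fold rise in 3, against 9.53% of all tested genes. Tested against a change of 1.5-fold rather than 0, 24 members fell, where 14.4% of all genes did, and 3 rose, where 14.6% did. In 31 members every Melittin library lay below every NC library, as in 39.1% of all tested genes. In 3 members every Melittin library lay above, as in 38.3% of all tested genes, and in 7 the groups overlapped.

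**Figure D1:**
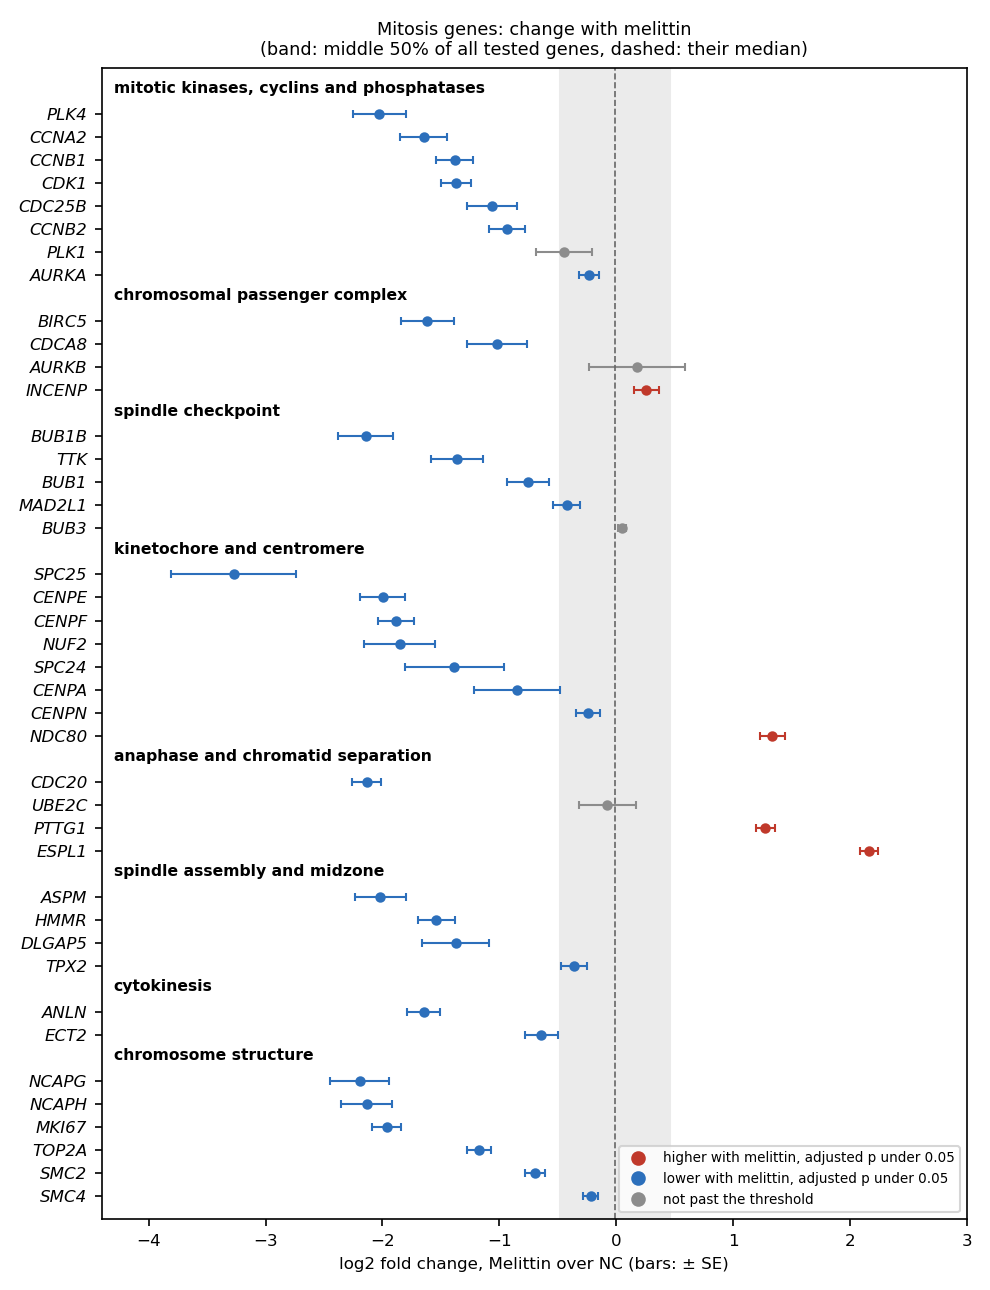
Log2 fold change of each tested mitosis gene, Melittin over NC, with its SE, grouped by role (3 libraries per group). The genes run from −3.27 for SPC25 to 2.16 for ESPL1, and ESPL1, PTTG1 and NDC80 stand more than 1 log2 unit above 0.

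Of the 8 tested genes of the kinases, cyclins and phosphatases that start and drive mitosis, 7 fell and 0 rose, with a median log2 fold change of −1.22. Their summed level was 34.7 to 35.5 CPM in Melittin libraries and 62.0 to 67.5 CPM in NC libraries. CDK1, the kinase whose activity defines the mitotic state, had 5.40, 4.12 and 4.49 CPM in the Melittin libraries, against 12.4, 12.2 and 11.3 CPM in the NC libraries. All Melittin values lay below all NC values. Its log2 fold change was −1.37 (SE 0.125, edgeR adjusted p = 1.26e-10), a 2.59-fold lower level.

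The cyclin partners of CDK1 moved the same way. CCNB1, which encodes cyclin B1, the main mitotic cyclin, had 4.10, 2.89 and 3.02 CPM with Melittin, against 7.68, 8.48 and 9.94 CPM in NC (log2 fold change −1.38, SE 0.156, edgeR adjusted p = 7.92e-09). CCNA2, encoding cyclin A2, which acts in S phase and at mitotic entry, had 2.15, 1.39 and 1.74 CPM with Melittin, against 4.67, 5.89 and 5.89 CPM in NC (log2 fold change −1.65, SE 0.201, edgeR adjusted p = 3.16e-08). In neither cyclin gene did the groups overlap. CCNB2, the gene of cyclin B2, fell by 0.93 on the log2 scale (edgeR adjusted p = 5.02e-06).

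The steepest fall among the tested genes of this role was that of PLK4, the kinase that starts the duplication of centrioles. It had 1.24, 0.946 and 1.07 CPM with Melittin, against 3.79, 5.04 and 4.39 CPM in NC, a 4.07-fold lower level (log2 fold change −2.03, SE 0.228, edgeR adjusted p = 7.43e-09). Its relative PLK1, which works at the spindle poles, the kinetochores and the midbody, had 1.37, 2.0 and 2.21 CPM with Melittin, against 2.95, 2.50 and 2.14 CPM in NC. The third Melittin library lay above the third NC library, so the groups overlapped, and the difference did not pass (log2 fold change −0.45, SE 0.238, edgeR adjusted p = 0.0911). Scaled by library totals alone, PLK1 passed, at −0.68 (edgeR adjusted p = 0.0116).

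AURKA, the kinase that matures the spindle poles, was one of the most abundant members and changed little. It averaged 16.9 ± 1.13 CPM with Melittin and 19.8 ± 1.57 CPM in NC (SD, n = 3 each), a 1.17-fold lower level with overlapping groups (log2 fold change −0.23, SE 0.0854, edgeR adjusted p = 0.0168). Its call was lost without Melittin replicate 3 (edgeR adjusted p = 0.0568), without NC replicate 1 (0.0554) and without NC replicate 2 (0.0785). With all 6 libraries, DESeq2 did not call AURKA either (DESeq2 adjusted p = 0.0626). Of the phosphatases that switch CDK1 on, CDC25B fell by 1.06 on the log2 scale (edgeR adjusted p = 7.63e-05). CDC25C was too low to test, with 2, 5 and 0 counts in the Melittin libraries, against 8, 20 and 15 counts in the NC libraries. When no low-count filter was applied its log2 fold change was −2.31 (edgeR adjusted p = 0.000867). CCNB2, CDC25B and AURKA are given although the rule for values in every library did not select them.

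**Figure D2:**
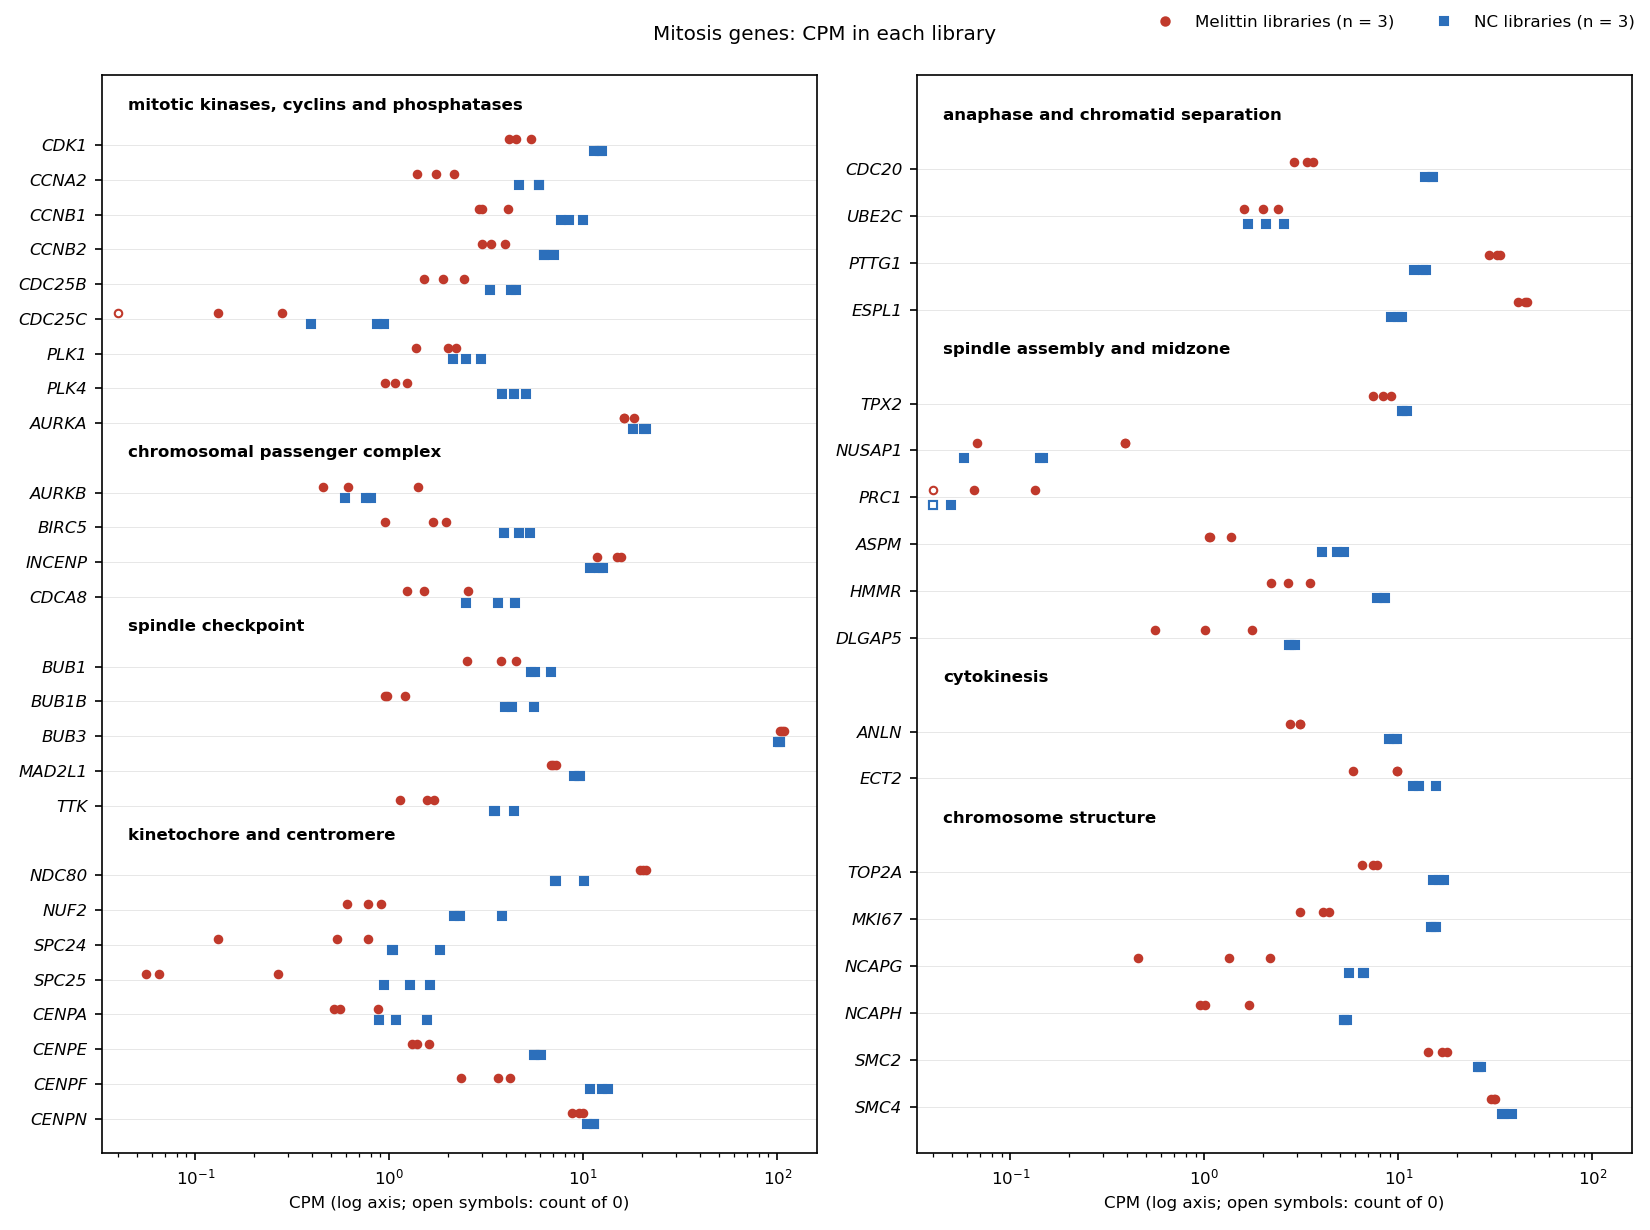
Level of each mitosis gene in every library, in CPM on a log axis, with the 3 Melittin and the 3 NC libraries shown as points and genes grouped by role. The points of the 2 groups are apart in most genes, with NC higher, and ESPL1, PTTG1 and NDC80 show Melittin higher in all 3 libraries.

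The chromosomal passenger complex, which corrects faulty attachments of chromosomes and later directs cytokinesis, did not move as a unit. Its 4 genes encode the kinase Aurora B (AURKB), its scaffold INCENP, survivin (BIRC5) and borealin (CDCA8), and 2 fell, 1 rose and 1 did not pass. BIRC5 had 1.95, 0.946 and 1.68 CPM with Melittin, against 3.89, 4.66 and 5.32 CPM in NC, with no overlap (log2 fold change −1.61, SE 0.230, edgeR adjusted p = 4.49e-07). CDCA8 had 1.24, 1.5 and 2.55 CPM with Melittin, against 4.43, 3.63 and 2.48 CPM in NC. The highest Melittin library just exceeded the lowest NC library in CDCA8, which still passed (log2 fold change −1.02, SE 0.254, edgeR adjusted p = 0.000727).

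INCENP, the scaffold that holds the complex together, had 14.8, 15.6 and 11.7 CPM with Melittin, against 10.8, 12.6 and 12.1 CPM in NC. The groups overlapped, since the third Melittin library lay below 2 of the NC libraries. Its rise was 1.19-fold (log2 fold change 0.26, SE 0.107, edgeR adjusted p = 0.0312). It was called in 7 of the 15 alternative analyses other than the test against 1.5-fold, which did not call it either. The call was lost without Melittin replicate 1 (edgeR adjusted p = 0.0819), Melittin replicate 2 (0.206), NC replicate 1 (0.148) or NC replicate 3 (0.0518). Scaled by library totals alone, the log2 fold change of INCENP was 0.026 (edgeR adjusted p = 0.829). AURKB, the catalytic subunit, was rarer, at 0.455, 0.612 and 1.41 CPM with Melittin, against 0.590, 0.754 and 0.809 CPM in NC. The third Melittin library was the highest of the 6 and the first Melittin library the lowest. The log2 fold change of AURKB was 0.18 (SE 0.411, edgeR adjusted p = 0.696), and its sign turned to −0.40 without Melittin replicate 3 and to −0.047 with library totals alone.

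Of the 5 spindle checkpoint genes, which sense unattached kinetochores and keep APC/C inactive, 4 fell and 0 rose, with a median log2 fold change of −0.76. BUB1B encodes BUBR1, a part of the complex that inhibits APC/C, and had 0.976, 0.946 and 1.21 CPM with Melittin, against 5.56, 3.96 and 4.28 CPM in NC (log2 fold change −2.14, SE 0.234, edgeR adjusted p = 3.93e-09). TTK, the kinase MPS1 that starts checkpoint signalling, had 1.69, 1.56 and 1.14 CPM with Melittin, against 3.49, 4.38 and 3.47 CPM in NC (log2 fold change −1.36, SE 0.223, edgeR adjusted p = 3.97e-06). In both genes every NC library was above every Melittin library.

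BUB1, the kinase that recruits other checkpoint proteins to the kinetochore, had 4.49, 2.50 and 3.75 CPM with Melittin, against 5.66, 6.83 and 5.37 CPM in NC (log2 fold change −0.76, SE 0.179, edgeR adjusted p = 0.000435). MAD2L1 encodes MAD2, which captures CDC20, and had 7.22, 6.79 and 6.97 CPM with Melittin, against 9.55, 8.95 and 9.65 CPM in NC (log2 fold change −0.42, SE 0.115, edgeR adjusted p = 0.00175). The groups did not overlap in either gene. BUB3, the partner that carries BUB1 and BUBR1 to kinetochores, was by far the most abundant of the 44 genes in CPM and had 103, 108 and 106 CPM with Melittin, against 100.4, 103 and 104 CPM in NC. Its groups overlapped and its log2 fold change of 0.05 did not pass (SE 0.0364, edgeR adjusted p = 0.219), while with library totals alone it turned to −0.18 (edgeR adjusted p = 5.46e-05). BUB3 alone made up 27.7% to 28.5% of the members' summed CPM with Melittin and 22.4% to 23.2% in NC. The sum was 370.8 to 379.8 CPM with Melittin and 446.7 to 451.3 CPM in NC, and without BUB3 it was 268.1 to 271.6 CPM with Melittin and 343.1 to 348.6 CPM in NC.

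Kinetochore genes fell in all but 1 case. Of 8 tested, 7 fell and NDC80 rose, and the median log2 fold change was −1.62. CENPF, a large protein of the outer kinetochore that accumulates in G2, had 4.16, 2.34 and 3.62 CPM with Melittin, against 12.4, 13.5 and 10.8 CPM in NC (log2 fold change −1.88, SE 0.154, edgeR adjusted p = 1.2e-11). CENPE, the kinetochore motor that moves chromosomes to the spindle equator, had 1.30, 1.39 and 1.61 CPM with Melittin, against 5.61, 5.56 and 6.07 CPM in NC, a 3.99-fold lower level (log2 fold change −2.00, SE 0.194, edgeR adjusted p = 4.3e-10). The Melittin values were close to each other in CENPE and wider in CENPF, and neither gene had overlap between groups.

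NDC80, NUF2, SPC24 and SPC25 encode the 4 subunits of the Ndc80 complex, the main microtubule coupler of the kinetochore, which contains 1 copy of each. Their transcripts moved in opposite directions. NDC80 (chromosome 18, 2571557 to 2616635, plus strand, GRCh38) had 19.7, 21.2 and 20.3 CPM with Melittin, against 7.18, 7.25 and 10.1 CPM in NC. Every Melittin library lay above every NC library, and the third NC library stood above the other NC libraries. NDC80 was 2.52-fold higher (log2 fold change 1.34, SE 0.108, edgeR adjusted p = 9.85e-12). It rested on 303, 380 and 303 counts in Melittin libraries and 146, 154 and 174 counts in NC libraries.

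The other 3 subunits fell. SPC25 had 0.0650, 0.0557 and 0.268 CPM with Melittin, against 0.935, 1.27 and 1.62 CPM in NC, the steepest fall of all tested members (log2 fold change −3.27, SE 0.535, edgeR adjusted p = 4.01e-06). This was also one of the rarest transcripts, with 1, 1 and 4 counts in the Melittin libraries, against 19, 27 and 28 counts in the NC libraries, so its 9.65-fold lower level is imprecise. NUF2, the direct partner of NDC80 in the microtubule-binding head, averaged 0.764 ± 0.154 CPM with Melittin and 2.76 ± 0.913 CPM in NC (SD, n = 3 each), with no overlap (log2 fold change −1.85, SE 0.305, edgeR adjusted p = 4.49e-06). SPC24 averaged 0.482 ± 0.328 CPM with Melittin and 1.30 ± 0.452 CPM in NC (SD, n = 3 each; log2 fold change −1.39, SE 0.423, edgeR adjusted p = 0.0045). The call of SPC24 was lost without NC replicate 1 (log2 fold change −1.06, edgeR adjusted p = 0.0536).

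Within each library the ratio of NDC80 to its partners, per gene length, does not depend on how libraries are scaled. The NDC80 to NUF2 ratio was 20.5, 25.7 and 31.9 in Melittin libraries, against 3.14, 1.80 and 4.12 in NC libraries. The NDC80 to SPC24 ratio was 121, 21.7 and 30.3 in Melittin libraries, against 3.15, 5.59 and 7.72 in NC libraries. In both ratios the lowest Melittin library exceeded the highest NC library, but the value of 121 rests on 2 SPC24 counts. SPC24 had 2, 14 and 8 counts in the Melittin libraries, against 37, 22 and 18 counts in the NC libraries. The NDC80 to SPC25 ratio was 155.9, 195.6 and 39.0 in Melittin libraries, against 3.96, 2.94 and 3.2 in NC libraries, and rests on the few SPC25 counts given above. These pairs were chosen after their values were seen, so the ratios are a description without a test. NUF2 and SPC24 were likewise not selected by the rule for values in every library.

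**Figure D3:**
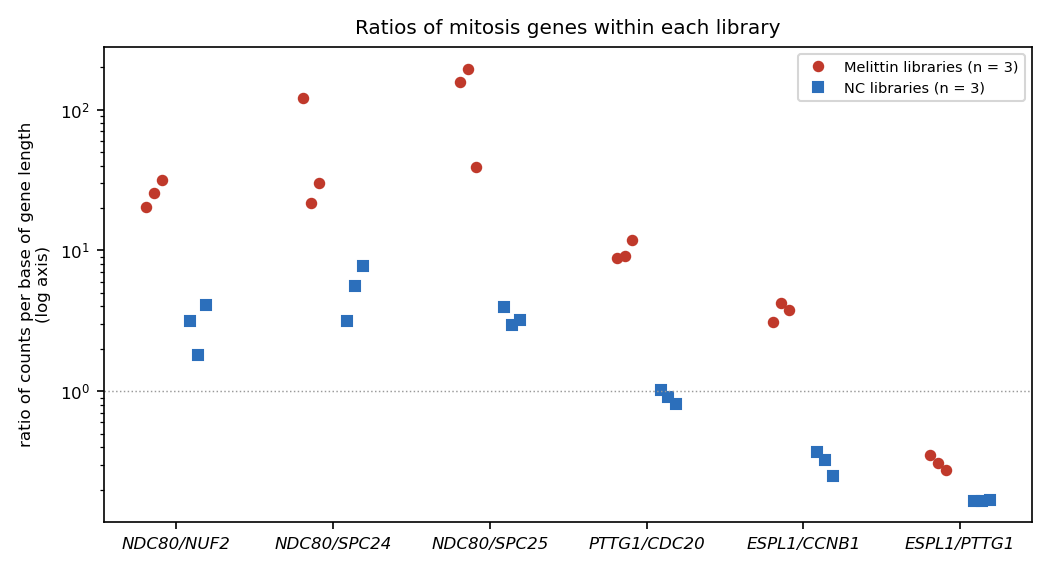
Ratios of mitosis gene pairs within each library, per gene length, on a log axis, with the 3 Melittin and the 3 NC libraries as points. The pairs were not planned, and no ratio was tested. The NDC80 to NUF2 ratio lies between 20.5 and 31.9 in Melittin and between 1.80 and 4.12 in NC libraries, and the PTTG1 to CDC20 ratio between 8.82 and 11.9 in Melittin and between 0.812 and 1.03 in NC libraries.

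The 2 remaining kinetochore genes, both outside the rule for values in every library, passed only narrowly. CENPA, the histone H3 variant that marks the centromere, fell by 0.84 on the log2 scale (edgeR adjusted p = 0.0398). Its call was lost without Melittin replicate 1 (edgeR adjusted p = 0.114), Melittin replicate 2 (0.124), NC replicate 2 (0.0618) or NC replicate 3 (0.195), and with DESeq2 (DESeq2 adjusted p = 0.1285). CENPA overlaps SLC35F6 (2284 counts with Melittin and 2270 in NC) on the same strand. CENPN, which reads the CENPA nucleosome, fell by 0.24 on the log2 scale (edgeR adjusted p = 0.0408). Its call was lost without Melittin replicate 1 (edgeR adjusted p = 0.126), Melittin replicate 3 (0.0641), NC replicate 1 (0.0943) or NC replicate 2 (0.104). The call of CENPN was also lost with the replicate number as a block (edgeR adjusted p = 0.052) and when a trend with gene length was removed (0.0661). DESeq2 did not call CENPN either (DESeq2 adjusted p = 0.137).

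The 4 genes of the anaphase trigger diverged: 2 rose, 1 fell and 1 did not pass. Their summed level was higher with Melittin, at 79.6 to 83.0 CPM, against 37.9 to 40.6 CPM in NC, and in no other role was every Melittin sum above every NC sum. ESPL1, the gene of separase, the protease that cuts cohesin (chromosome 12, 53268299 to 53293638, plus strand, GRCh38), had 46.2, 45.1 and 41.5 CPM with Melittin, against 10.4, 9.98 and 9.13 CPM in NC. The groups were far apart and each was tight. ESPL1 was 4.48-fold higher, the largest rise of the tested members (log2 fold change 2.16, SE 0.0771, edgeR adjusted p = 1.28e-19).

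PTTG1 encodes securin, the protein that holds separase inactive until APC/C destroys it (chromosome 5, 160421855 to 160428739, plus strand, GRCh38). It had 29.3, 32.3 and 33.6 CPM with Melittin, against 13.9, 13.3 and 12 CPM in NC. Every Melittin library was above every NC library, and the level was 2.42-fold higher (log2 fold change 1.27, SE 0.0811, edgeR adjusted p = 5.79e-14). PTTG2, a near-identical copy, averaged 0.214 CPM with Melittin and 0.0507 CPM in NC, and reads may be split between the copies, which makes PTTG1 values uncertain to that extent. Separase and securin transcripts thus both rose. The ESPL1 to PTTG1 ratio per gene length was higher in every Melittin library, at 0.351, 0.310 and 0.275, than in the NC libraries, at 0.167, 0.167 and 0.169, and was not tested.

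CDC20, the activator that brings APC/C to securin and cyclin B, went the other way (chromosome 1, 43358981 to 43363203, plus strand, GRCh38). It had 3.38, 3.62 and 2.88 CPM with Melittin, against 13.8, 14.9 and 15.1 CPM in NC. With no overlap and little spread in either group, CDC20 was 4.39-fold lower (log2 fold change −2.13, SE 0.126, edgeR adjusted p = 1.14e-14). The PTTG1 to CDC20 ratio per gene length was 8.82, 9.11 and 11.9 in Melittin libraries, against 1.03, 0.912 and 0.812 in NC libraries. This ratio was not planned or tested, and its shift follows from the opposite changes of both genes. UBE2C, the ubiquitin-conjugating enzyme that starts chains for APC/C, had 2.41, 2.0 and 1.61 CPM with Melittin, against 2.56, 2.07 and 1.68 CPM in NC. The UBE2C groups overlapped throughout (log2 fold change −0.08, SE 0.245, edgeR adjusted p = 0.789), and the sign turned to 0.05 without Melittin replicate 3 and to 0.086 without NC replicate 1.

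All 4 tested genes of spindle assembly fell, with a median log2 fold change of −1.46 and a summed level of 13.2 to 14.1 CPM with Melittin and 25.7 to 27.1 CPM in NC. HMMR, a microtubule-binding protein of the spindle poles, had 2.21, 3.51 and 2.68 CPM with Melittin, against 8.56, 7.77 and 8.44 CPM in NC (log2 fold change −1.54, SE 0.159, edgeR adjusted p = 1.36e-09). ASPM, a spindle pole protein whose loss causes microcephaly, had 1.37, 1.06 and 1.07 CPM with Melittin, against 4.82, 5.23 and 4.04 CPM in NC (log2 fold change −2.02, SE 0.220, edgeR adjusted p = 3.9e-09). In both genes the lowest NC library was more than 2-fold above the highest Melittin library.

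DLGAP5, which stabilises the microtubules that hold kinetochores, had 1.76, 0.557 and 1.01 CPM with Melittin, against 2.80, 2.92 and 2.72 CPM in NC (log2 fold change −1.37, SE 0.288, edgeR adjusted p = 0.000114). The Melittin libraries were uneven and the NC libraries even, without overlap. TPX2, the activator of Aurora A on the spindle, had 7.41, 8.35 and 9.18 CPM with Melittin, against 10.5, 11 and 10.4 CPM in NC, a 1.28-fold lower level (log2 fold change −0.36, SE 0.111, edgeR adjusted p = 0.00502).

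NUSAP1, a protein that bundles spindle microtubules, and PRC1, which cross-links the central spindle, were too low to test. NUSAP1 had 6, 7 and 1 counts with Melittin, against 3, 3 and 1 counts in NC. PRC1 had 1, 0 and 2 counts with Melittin, against 1, 0 and 0 counts in NC. Each of these genes overlaps an unnamed gene on the same strand: the one at PRC1 had 25 counts with Melittin and 14 in NC, and the one at NUSAP1 had 0. Whether the overlap lowered the counts of NUSAP1 and PRC1 was not tested.

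Both cytokinesis genes fell. ANLN, the gene of anillin, which anchors the contractile ring, had 3.12, 3.12 and 2.75 CPM with Melittin, against 9.55, 8.90 and 9.82 CPM in NC (log2 fold change −1.65, SE 0.141, edgeR adjusted p = 3.39e-11). ECT2, the exchange factor that activates RhoA at the cleavage site, had 5.85, 9.80 and 9.85 CPM with Melittin, against 12.7, 11.8 and 15.7 CPM in NC (log2 fold change −0.64, SE 0.14, edgeR adjusted p = 0.000183). The first Melittin library was low in ECT2, and the groups did not overlap in either gene.

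All 6 genes of chromosome structure fell, with a median log2 fold change of −1.57 and a summed level of 59.6 to 61.7 CPM with Melittin and 102.3 to 109.2 CPM in NC. MKI67 encodes Ki-67, which coats mitotic chromosomes and the common histological marker of cycling cells (chromosome 10, 128096659 to 128126423, minus strand, GRCh38). It had 3.12, 4.40 and 4.09 CPM with Melittin, against 15.7, 14.6 and 15.3 CPM in NC. The Melittin libraries stood at 20.5%, 28.9% and 26.9% of the NC mean (log2 fold change −1.96, SE 0.125, edgeR adjusted p = 5.48e-14). TOP2A, the topoisomerase that untangles sister chromatids, had 7.74, 6.51 and 7.44 CPM with Melittin, against 17.3, 16.2 and 15.1 CPM in NC, with no overlap (log2 fold change −1.17, SE 0.106, edgeR adjusted p = 9.13e-11).

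The remaining genes of this role encode condensin, the ring that compacts mitotic chromosomes. NCAPH, the kleisin that closes condensin I, had 1.69, 0.946 and 1.01 CPM with Melittin, against 5.27, 5.23 and 5.43 CPM in NC (log2 fold change −2.13, SE 0.218, edgeR adjusted p = 1.12e-09). NCAPG, another subunit found in condensin I only, had 0.455, 2.17 and 1.34 CPM with Melittin, against 6.64, 5.56 and 6.59 CPM in NC (log2 fold change −2.19, SE 0.252, edgeR adjusted p = 1.02e-08). The Melittin values of NCAPG rest on 7, 39 and 20 counts and spread more than counting alone would give, yet all lay below NC.

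The ATPase core that both condensins share had smaller fold changes. SMC2 averaged 16.3 ± 1.83 CPM with Melittin and 26.2 ± 0.461 CPM in NC (SD, n = 3 each; log2 fold change −0.69, SE 0.0822, edgeR adjusted p = 1.8e-08). SMC4 averaged 30.8 ± 0.687 CPM with Melittin and 35.9 ± 2.38 CPM in NC (SD, n = 3 each; log2 fold change −0.22, SE 0.0636, edgeR adjusted p = 0.00303), and its call was lost when a trend with gene length was removed (edgeR adjusted p = 0.0881). The SMC4 to NCAPH ratio per gene length was 14.3, 26.6 and 24.8 in Melittin libraries, against 5.87, 5.22 and 5.17 in NC libraries. SMC2, SMC4 and this ratio were singled out after their values were seen.

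Among the 33 members that fell, the fall ran from 1.16-fold in SMC4 to 9.65-fold in SPC25, with a median of 2.61-fold, and 10 of them fell by less than 2-fold. The 20 tested members with the higher mean FPKM of both groups had a median log2 fold change of −0.391. The other 21 tested members had a median of −1.645. That level includes the Melittin values, so a fall itself lowers it, and the difference was not tested.

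Per gene length, the order of the members changed between the groups. At least 1 FPKM was reached by 18 members with Melittin and by 30 in NC, and the members' median was 0.493 FPKM with Melittin and 1.36 FPKM in NC. On this scale, set by library totals, the median of all 15974 genes with a count was also lower with Melittin, at 1.57 FPKM, against 1.93 FPKM in NC. With Melittin the highest levels were those of PTTG1 (14.8 ± 0.996 FPKM), BUB3 (11.9 ± 0.285), AURKA (5.32 ± 0.345) and NDC80 (5.29 ± 0.173; SD, n = 3). In NC they were those of BUB3 (13.5 ± 0.207 FPKM), CDC20 (7.85 ± 0.373), AURKA (7.33 ± 0.588) and PTTG1 (7.17 ± 0.530; SD, n = 3). AURKA and NDC80 in Melittin, and AURKA and PTTG1 in NC, lay within an SD of each other, and CDC20 lay within the larger SD of AURKA in NC. CDC20 ranked 11 of the 44 with Melittin and 2 in NC, NDC80 4 with Melittin and 14 in NC, and ESPL1 5 with Melittin and 25 in NC. Among all genes with a count, ESPL1 stood at the percentile 66.9 with Melittin and 44.0 in NC, and CDC20 at 49.4 with Melittin and 73.1 in NC.

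The other genes of the mitotic pathway, outside the 44, moved in both directions. In 8 further lists of APC/C, kinetochore, condensin, cohesin, regulator, spindle and cytokinesis genes together, 136 of 140 genes were tested: 75 fell (55.1%), 28 rose (20.6%) and the median log2 fold change was −0.31. Over all tested genes 38.3% fell and 38.1% rose. With library totals as the only scaling 17 genes of the 8 lists rose. A difference from the members was not tested. The 12 mitotic kinesins, motors of the spindle, held 10 that fell (83.3%), 0 that rose and a median of −1.56. KIF11, the motor that separates the spindle poles, averaged 1.91 ± 0.236 CPM with Melittin and 7.58 ± 0.0803 CPM in NC (SD, n = 3 each; log2 fold change −1.99). KIF2C fell by 1.62 and KIF15 by 2.86 (log2).

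**Figure D4:**
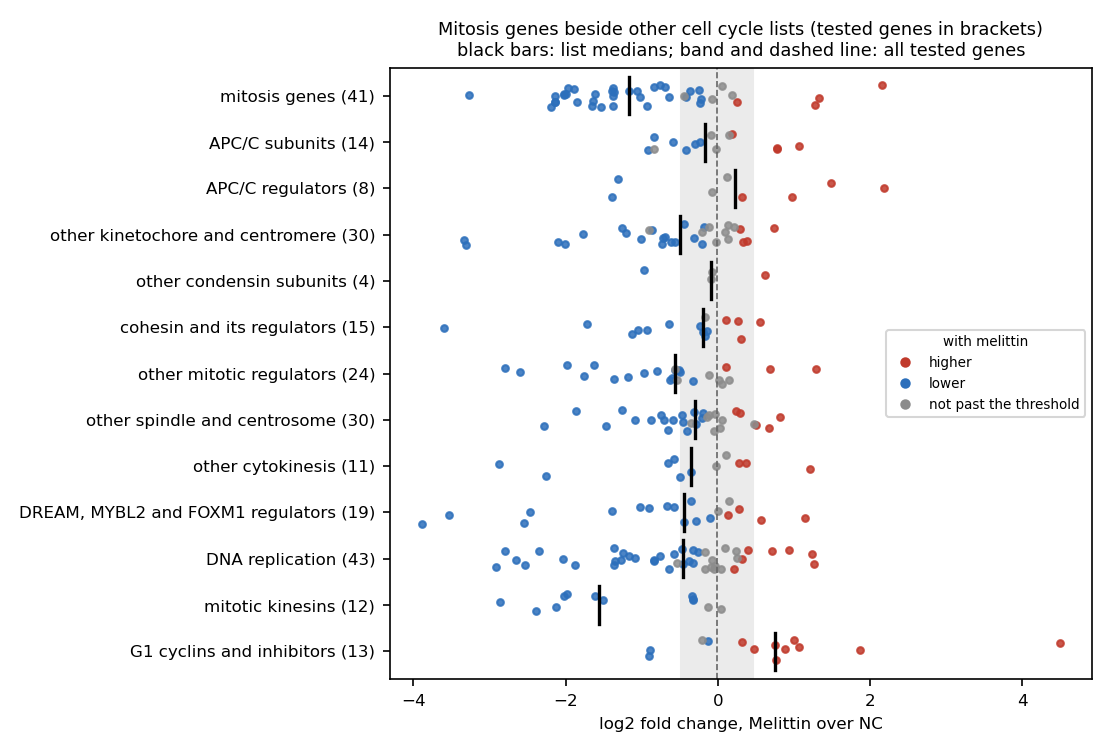
Log2 fold change of every tested gene of the mitosis genes and of the other cell cycle lists, Melittin over NC, with each list's median marked. The mitosis genes have a median of −1.17, the mitotic kinesins −1.56, the APC/C subunits −0.16 and the G1 cyclins and inhibitors 0.75.

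Of the 14 genes of the subunits of APC/C itself 6 fell (42.9%) and 4 rose (28.6%), with a median log2 fold change of −0.16, shares near those of all tested genes (38.3% and 38.1%). The small subunit gene CDC26 rose, averaging 58.8 ± 2.79 CPM with Melittin and 28.2 ± 1.43 CPM in NC, while CDC27, a subunit that binds activators, fell, averaging 120 ± 2.55 CPM with Melittin and 181 ± 5.21 CPM in NC (SD, n = 3 each). ANAPC11, ANAPC13 and ANAPC16 also rose. Of 8 tested APC/C regulators 4 rose (50%) and 2 fell (25%), beside the same shares of all tested genes. UBE2S, which elongates the ubiquitin chains that UBE2C starts, averaged 73.7 ± 0.816 CPM with Melittin and 37.3 ± 1.05 CPM in NC (log2 fold change 0.98). MAD2L2, a MAD2 relative that also acts in DNA repair, averaged 70.5 ± 2.51 CPM with Melittin and 25.2 ± 1.01 CPM in NC (log2 fold change 1.49). FBXO5, which encodes the interphase APC/C inhibitor EMI1, fell by 1.31 on the log2 scale, and TRIP13, the ATPase that disassembles the checkpoint complex, fell by 1.40.

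In the rest of the kinetochore 18 of 30 tested genes fell (60%) and 4 rose (13.3%), with a median log2 fold change of −0.50. The shares of all tested genes were 38.3% and 38.1%. ZWINT, a partner of the outer kinetochore scaffold, averaged 1.10 ± 0.116 CPM with Melittin and 11.1 ± 0.620 CPM in NC (SD, n = 3 each; log2 fold change −3.33, edgeR adjusted p = 4.2e-16). KNL1, that scaffold, fell by 2.10 on the log2 scale and ZW10, which recruits dynein, by 0.86. CENPH, CENPB, BOD1 and MIS12 rose, by 0.73, 0.38, 0.33 and 0.30 on the log2 scale. Of the condensin subunits outside the members, NCAPD2 of condensin I rose (log2 fold change 0.63) and NCAPD3 of condensin II fell (−0.97), while NCAPG2 and NCAPH2 did not pass.

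Cohesin genes, the substrate side of separase, fell in 10 of 15 cases (66.7%) and rose in 4 (26.7%), with a median log2 fold change of −0.19. The shares of all tested genes were 38.3% and 38.1%. RAD21, the cohesin subunit that separase cuts, rose by 0.31 on the log2 scale, while the core subunit SMC1A fell by 0.94. The acetyltransferase gene ESCO2, active in S phase, averaged 0.695 ± 0.331 CPM with Melittin and 8.37 ± 0.703 CPM in NC (SD, n = 3 each; log2 fold change −3.60), and its relative ESCO1 rose by 0.56. PDS5B and SMC3 rose as well.

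Of 24 tested further mitotic regulators 15 fell (62.5%) and 3 rose (12.5%), where 38.3% of all tested genes fell and 38.1% rose. NEK6, a kinase of the mitotic spindle that is also expressed outside mitosis, rose, averaging 442 ± 7.04 CPM with Melittin and 180 ± 2.67 CPM in NC (SD, n = 3 each; log2 fold change 1.29). NEK7 fell by 0.80 and ARPP19 by 0.61 (log2), and CKS2 rose by 0.68 and ENSA by 0.11, the ENSA rise being smaller than the shift of all genes under library totals. Of 30 tested spindle and centrosome genes 17 fell (56.7%), among them STIL (−1.47), TACC3 (−1.09) and CLASP1 (−0.41), and 5 rose (16.7%), among them PSRC1 (0.82). HAUS5, HAUS6, HAUS8 and TTC28 were the other risers. Of 11 further cytokinesis genes 6 fell (54.5%), and PLK3, RHOA and SEPTIN9 rose (27.3%). PLK3, a stress-responsive kinase, averaged 229 ± 10.7 CPM with Melittin and 99.5 ± 1.40 CPM in NC (SD, n = 3 each).

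Genes that control the transcription of mitosis genes (DREAM complex, MYBL2, FOXM1, E2F and RB families) fell in 13 of 19 tested cases (68.4%) and rose in 4 (21.1%). Their median log2 fold change was −0.44, and the shares of all tested genes were 38.3% and 38.1%. With library totals as the only scaling 2 rose and the median was −0.67. Against 1.5-fold 8 fell and 1 rose, where 14.4% of all tested genes fell and 14.6% rose. MYBL2, the B-Myb factor that activates G2/M genes, averaged 1.59 ± 0.272 CPM with Melittin and 9.21 ± 0.349 CPM in NC (log2 fold change −2.54). FOXM1, another activator of these genes that was singled out after its values were seen, averaged 0.390 ± 0.105 CPM with Melittin and 2.19 ± 0.503 CPM in NC (SD, n = 3 each; log2 fold change −2.46, edgeR adjusted p = 4.6e-07). E2F7, an atypical repressor of the E2F family, rose, averaging 115 ± 1.25 CPM with Melittin and 51.9 ± 2.51 CPM in NC (log2 fold change 1.15). RB1 fell by 0.66 on the log2 scale, and LIN54, E2F4 and RBL2 rose.

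Among the genes of the phases around mitosis, most replication genes fell and most G1 genes rose. Of 43 DNA replication genes 25 fell (58.1%) and 7 rose (16.3%), where 38.3% of all tested genes fell and 38.1% rose. Their median log2 fold change was −0.45. Against 1.5-fold 15 of them fell and 3 rose, where 14.4% of all tested genes fell and 14.6% rose. MCM3 fell by 1.16, MCM4 by 1.09 and RRM2 by 1.88 (log2). Of 13 tested G1 cyclins and inhibitors 9 rose (69.2%) and 3 fell (23.1%), with a median of 0.75. CDKN1A, the gene of the CDK inhibitor p21, averaged 1774 ± 57.1 CPM with Melittin and 1058 ± 9.95 CPM in NC, and CCND2, the gene of cyclin D2, averaged 8.59 ± 0.285 CPM with Melittin and 0.370 ± 0.0772 CPM in NC (SD, n = 3 each). The fallers were CDK6 (log2 fold change −0.90), CCNE2 (−0.89) and CCND1 (−0.13).

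Some markers of other cell types and states differed between the groups. Of 12 macrophage markers 11 were tested, and 6 fell (54.5%) and 4 rose (36.4%), where 38.3% of all tested genes fell and 38.1% rose. The sum of the 12 was 2085 to 2127 CPM with Melittin and 2606 to 2609 CPM in NC. CD68, which was not tested, had 1 count in all, and whether this reflects its level or how reads were counted was not tested. Of 9 markers of undifferentiated myeloid cells 5 were tested and 4 rose (PRTN3, ELANE, CTSG and AZU1), with sums of 7.71 to 8.85 CPM with Melittin and 2.21 to 3.24 CPM in NC, while CD34 was at 0 in every library. Of 14 epithelial and prostate markers 3 were tested, 1 fell and 1 rose. Their sums were 93.3 to 105.2 CPM with Melittin and 66.0 to 70.0 CPM in NC. Among those reported here FOLH1 fell, and EPCAM, KRT5, KRT18, KRT19, KLK2 and TMPRSS2 were at 0 counts in every library. Of 10 fibroblast and endothelial markers 4 were tested and 1, COL1A1, rose, with sums of 310.9 to 324.2 CPM with Melittin and 307 to 317 CPM in NC. The part of these values in the fall of the mitosis genes was not tested.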

How the data were processed

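Per the labels' protocols, RNA was isolated with chloroform and libraries were prepared using the NEBNext Ultra II kit for Illumina. GRCh38 is the build named per the submitters' processing notes. The sources used here do not give the aligner, the counter, its strand setting or the annotation version. The deposited annotated table holds read counts per gene, made by the authors, with names, coordinates, lengths and FPKM. The deposited FPKM values equal the count divided by gene length and by the library's total count, on the usual scale, within a relative deviation of 2.23e-09 for values of at least 20 counts.

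The test was that of edgeR 4.0.16 (R 4.3.3): filterByExpr by group (12029 of 20036 genes), TMM scaling, glmQLFit and glmQLFTest (two-sided), and Benjamini-Hochberg adjustment over all tested genes with a threshold of 0.05. The SE was derived from the test, as the absolute log2 fold change over the root of its F statistic. Means in FPKM or CPM printed with ± carry the SD over 3 libraries. The members and the other gene lists were chosen with earlier results of these data known, and support nothing by being chosen. Values in every library are given for the 4 members of each role with the smallest adjusted p and for members that did not pass or were not tested. In other lists up to 3 passing genes with the smallest adjusted p are named, plus those against the majority where 5 or fewer. Alternatives were other size factors, library totals alone, DESeq2 1.42.0, limma 3.58.1 on log2(FPKM + 0.1) and log2(FPKM + 1), other filters, a test against 1.5-fold, a replicate block, removal of a length trend and leaving out each library. The scripts were run on simulated counts in which only 200 genes were changed. In the data themselves 76.4% of tested genes were called, so the simulation does not gauge error rates here. Replicates differed by more than counting noise (chi-square per degree of freedom 2.23 to 3.92 within Melittin and 1.73 to 1.76 within NC). This cannot show whether the libraries came from separate cultures, and all 6 libraries were used. A mouse reference was not used here, and no sequences are shown. Some genes of the marker lists are not reported here.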

Additional observations from a re-analysis of the deposited data

How the results depend on the processing

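Of 654 log2 fold changes of single members under the alternatives, 604 kept their direction and side of the threshold, 36 lost their call, 4 gained one and 10 changed sign; the cause was not tested. The members' median of −1.17 was −1.40 with library totals alone, −1.28 and −0.55 with limma on log2(FPKM + 0.1) and log2(FPKM + 1), −1.36 with at least 1 CPM in 3 libraries, and −1.28 to −1.06 when single libraries were left out. A larger pseudocount shrinks the changes of low genes by construction. Members that fell or rose numbered 33 and 4, and 35 and 3 with library totals alone, 31 and 3 with DESeq2, 24 and 3 against 1.5-fold, and 30 to 33 and 3 to 4 without single libraries. Same-numbered libraries did not deviate together over all tested genes (correlations of −0.0461, 0.0178 and −0.0191). With 3 libraries per group this cannot decide whether the numbers pair the samples. A replicate block gave 32 and 4, without CENPN. In the other mitotic lists 28 genes rose, and 17 with library totals, 18 with either FPKM scale and 9 against 1.5-fold, where 32 fell in place of 75. Over all genes 1761 rose and 1734 fell against 1.5-fold. The median of all genes, −0.007, was −0.238 with library totals, −0.219 and −0.139 with the FPKM scales, 0.010 with DESeq2 and 0.000361 with the length trend removed. AURKB (0.18) turned to −0.047 with library totals, −0.12 and −0.018 with the FPKM scales and −0.0074 with the length trend removed, and ran from −0.40 (without Melittin replicate 3) to 0.45 (without Melittin replicate 1) with a library left out. BUB3 (0.05) turned to −0.18 with library totals and to −0.18 and −0.17 with the FPKM scales, and was called higher with the length trend removed (0.15, edgeR adjusted p = 0.000592). UBE2C (−0.08) turned to 0.05 without Melittin replicate 3, and ran from −0.22 to 0.086 (without NC replicate 1) with a library left out. PLK1 was called lower with library totals (−0.68) and with the FPKM scales (−0.56 and −0.21). Among the lists, the medians with library totals were −0.67 for the transcription regulators (−0.44), −0.68 for DNA replication (−0.45) and 0.52 for the G1 genes (0.75), and with log2(FPKM + 1) −0.41 for the kinesins (−1.56) and 0.41 for the G1 genes. Low counts left CDC25C, NUSAP1 and PRC1 untested and limit the precision of tested members with few counts per library, such as SPC25 and SPC24.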

Other observations

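The Gene Ontology terms of the deposited table give a wider view of mitosis outside the 44 genes. Of 129 other tested genes with a kinetochore term 75 fell (58.1%) and 27 rose (20.9%), and of 182 with a spindle term 89 fell (48.9%) and 54 rose (29.7%). Of 336 with a cell division term 158 fell (47.0%) and 101 rose (30.1%), while the 73 with a chromosome segregation term fell in 29 cases (39.7%) and rose in 28 (38.4%). Over all tested genes 38.3% fell and 38.1% rose in the same edgeR test, and the differences between terms were not tested.

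The estimated replicate spread differed among the members, and each estimate rests on 3 libraries. Whether the true spread differs between members was not tested. The ratio of the variance to that of counting noise alone had a median of 1.51 in Melittin and 1.41 in NC libraries, and exceeded 4 in 8 members with Melittin and in 4 in NC. The values were 9.64 in Melittin and 5.66 in NC libraries for ECT2, and 8.92 in Melittin libraries for NCAPG, which means that their means rest on uneven libraries.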
